A study of Sus scrofa with 9 samples.

Results

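The genes described here encode 10 proteins of skeletal muscle fibres, measured in the developing additional molars of the Wuzhishan miniature pig. They were ACTC1, MYL1, MYL2, MYLPF, TNNC2, TNNI2, TPM2, TCAP, MYOZ1 and PGAM2, a list set by gene name with earlier results of these data known, and every probe set of the array whose only gene symbol was one of these was taken. That gave 13 probe sets for 10 of the 6765 genes that the array names by a single symbol. Of these genes, 9 had 1 probe set and TPM2 had 4. Additional molars are the permanent molars that form behind the milk teeth, and each sample was RNA of molar germs taken from the mandible together with the adjoining dental lamina. All animals were of the same breed and were untreated, and the groups differed by the day of gestation. At E50 the first molar was at the cap stage and the second had not begun, at E60 the first was at the bell stage and the second had begun, and at E70 the first was at the late bell stage while the second had changed little. There were 3 arrays per stage, labelled as biological replicates, with RNA that the study's methods describe as pooled from germs of a stage. The methods also describe the germs of a stage as coming from the same litter, so stage and litter cannot be told apart, and p-values measure only the spread between these arrays.

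A skeletal muscle fibre shortens when myosin of the thick filaments pulls on actin of the thin filaments. Troponin and tropomyosin lie along the actin and open it to myosin once calcium is released into the cell, and the filaments are anchored at the Z disc. A tooth germ itself forms from dental epithelium and dental mesenchyme and contains no muscle fibres, while the jaw around it carries the muscles of mastication and of the tongue and floor of the mouth. The array reads RNA of the whole dissected piece, so fewer muscle cells and less RNA per muscle cell cannot be told apart in any result below.

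The values are MAS 5.0 signals, which are linear intensities with 1 value per probe set, and the trimmed mean of every array was about 500.1, as the scaling step of MAS 5.0 leaves it. Signals of different genes come from different probes and are not set against each other. A sum of signals over a list follows its brightest probe sets. A signal was read as above background when it exceeded the 95th percentile of 23 background control probe sets of the same array. Changes are differences of mean log2 signal between stages in a limma fit of all 9 arrays, and a call is an adjusted p under 0.05 after Benjamini-Hochberg adjustment over all 23999 probe sets tested. The E50 arrays stood apart from the others in quality measures. The ratio of the 3' to the 5' control probe set of EF1A lay between 49.3 and 55.8 at E50, 1.42 and 1.56 at E60 and 1.35 and 1.47 at E70, that of GAPDH was 29.7 to 42.2, 6.98 to 9.24 and 4.36 to 6.47, and background was 77.7 to 379, 37.9 to 54.4 and 38.1 to 55.8. The actin ratio was 165 to 2308, 30.1 to 34.9 and 22.9 to 26.3, and the geometric mean signal of the hybridisation spike-ins, which are added to each array in fixed amounts, was 58370 to 66123, 4150 to 4268 and 3086 to 3938. Replicate arrays correlated least among themselves at E50 (r = 0.605 to 0.683), and more closely at E60 (0.902 to 0.914) and E70 (0.901 to 0.921). This difference in the arrays and the stage cannot be told apart in any comparison with E50, whereas the E60 and E70 arrays lay far closer to each other, though their ranges of the GAPDH and actin ratios and of the spike-ins did not overlap.

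The muscle genes had their highest signals at E50. In E70 germs 9 of the 10 genes were called lower than in E50 germs, where 14.3% of all genes were called lower, and the tenth, TCAP, was not called in either direction. All 10 had every E70 array below every E50 array, which 25.5% of all genes had. The median change of the 10 genes was -3.14 on the log2 scale, against -0.11 over all probe sets. The fall was deepest for the fast regulatory light chain MYLPF, whose mean signal at E70 was 3.20% of that at E50, and for the actin ACTC1 at 4.65%, the light chain MYL1 at 5.93% and the troponin subunit TNNI2 at 7.21%. It was shallowest for TPM2 at 44.4% and TCAP at 60.7%. Over the 3 stages together, the moderated F test called 9 of 10, all but TCAP, against 20.6% of all genes. The calls of 8 genes, all but TPM2 and TCAP, held under each of the 19 alternative settings in this comparison.

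**Figure D1:**
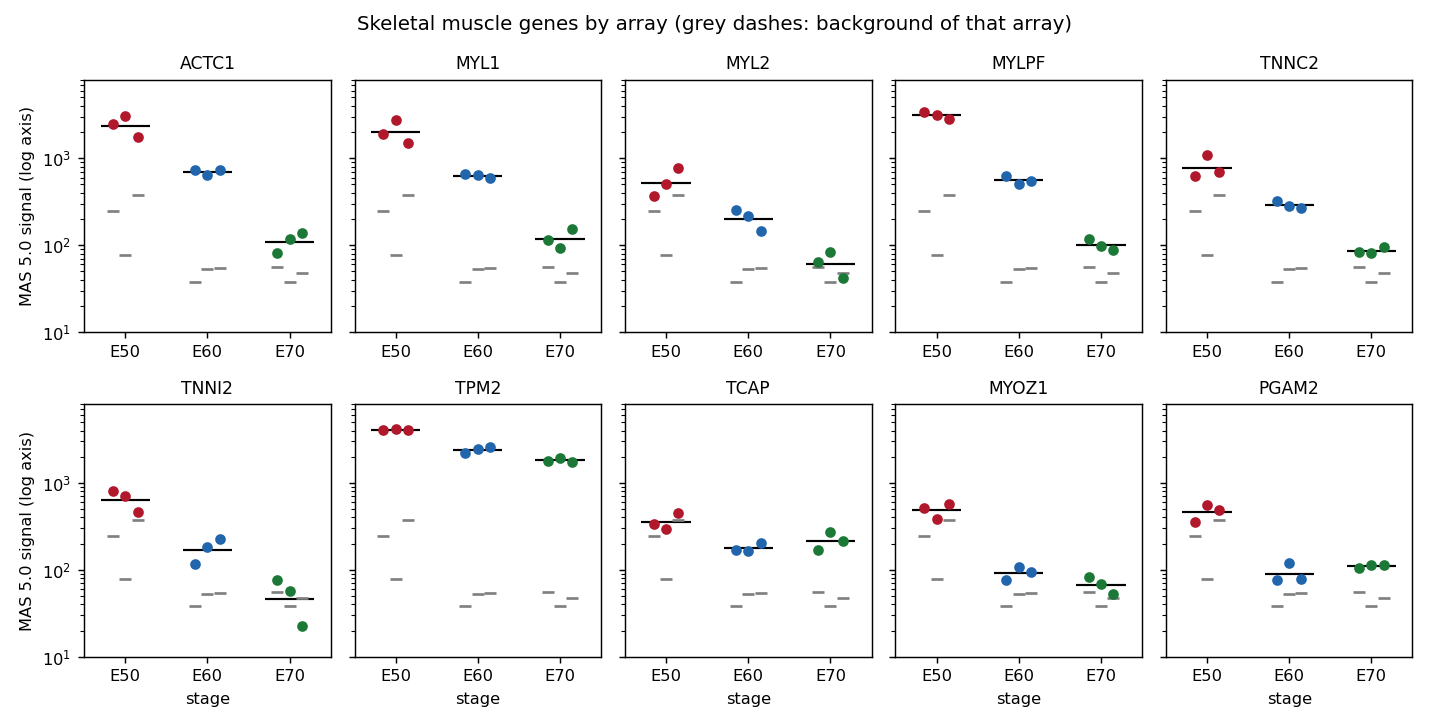
Signal of each of the 10 genes (brightest probe set, log axis) on the 3 arrays of E50, E60 and E70. Points are arrays, black lines are geometric means of a stage and grey dashes are the background of each array. ACTC1, MYL1, MYLPF and TNNC2 step down at both E60 and E70, while MYOZ1, PGAM2 and TCAP have overlapping points at E60 and E70.

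Among the motor proteins, MYLPF is the phosphorylatable light chain of fast skeletal myosin. Its signal was 3415, 3175 and 2839 at E50, 617, 504 and 553 at E60, and 117, 98.8 and 87.3 at E70. The stages did not overlap and the arrays of a stage lay close together. MYLPF fell by 2.49 ± 0.22 on the log2 scale at E60 against E50 (SE, 5.63-fold lower, limma adjusted p = 0.00134) and by 2.47 ± 0.22 at E70 against E60 (5.54-fold lower, adjusted p = 0.00613). The whole drop at E70 against E50 was 31.2-fold (adjusted p = 0.000172).

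MYL1 encodes the essential light chains of fast skeletal myosin. It read 1882, 2748 and 1515 at E50, 657, 637 and 595 at E60, and 114, 94.0 and 152 at E70, again with no overlap between stages. The change was -1.66 ± 0.30 at E60 against E50 (log2, SE, limma adjusted p = 0.0115) and -2.42 ± 0.30 at E70 against E60 (adjusted p = 0.0251). MYL2 is the regulatory light chain of slow skeletal fibres and of the heart ventricle. Its signals were 368, 504 and 768 at E50, 251, 214 and 145 at E60, and 64.3, 84.1 and 42.0 at E70, where 2 of 3 arrays were above background. Its stages did not overlap either, but its arrays were more spread. MYL2 was called lower at E60 against E50 (-1.40 ± 0.40, limma adjusted p = 0.0494), was not called at E70 against E60 (-1.70 ± 0.40, adjusted p = 0.218), and was 8.56-fold lower at E70 than at E50 (adjusted p = 0.00311).

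The thin filament is built on actin. ACTC1, the alpha actin of the heart, is also made in fetal skeletal muscle, and actin genes are alike enough in their coding sequence that probes may read more than 1 of them, which was not tested here. ACTC1 signals were 2446, 3060 and 1746 at E50, 728, 640 and 732 at E60, and 80.3, 117 and 140 at E70. The 3 stages were well separated. ACTC1 fell by 1.75 ± 0.31 on the log2 scale at E60 against E50 (SE, 3.37-fold, limma adjusted p = 0.0106) and its change was -2.67 ± 0.31 at E70 against E60 (6.37-fold lower, adjusted p = 0.0181), and it was 21.5-fold lower at E70 than at E50 (adjusted p = 0.000422).

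TNNC2 and TNNI2 are the calcium-binding and the inhibitory subunit of fast skeletal troponin. TNNC2 gave signals of 617, 1083 and 702 at E50, 326, 279 and 268 at E60, and 83.5, 80.3 and 94.96 at E70. TNNI2 gave 798, 709 and 466 at E50, 118, 181 and 226 at E60, and 76.6, 57.1 and 22.6 at E70, with 2 of 3 E70 arrays above background. Both genes had stages that did not overlap. TNNC2 was called lower at E60 against E50 (-1.42 ± 0.27, limma adjusted p = 0.0134), and its change of -1.75 ± 0.27 at E70 against E60 missed the threshold (adjusted p = 0.0547). TNNI2 was called at E60 against E50 (-1.92 ± 0.51, limma adjusted p = 0.0382) but not at E70 against E60 (-1.87 ± 0.51, adjusted p = 0.304). At E70 against E50 TNNC2 was 9.03-fold lower and TNNI2 13.9-fold lower, both called (adjusted p = 0.00073 and 0.00352).

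TPM2 encodes beta tropomyosin, which is made in skeletal muscle and, as other isoforms, in smooth muscle and in cells outside muscle. The brightest of its 4 probe sets read 4063, 4145 and 4076 at E50, 2234, 2484 and 2557 at E60, and 1788, 1951 and 1721 at E70. This was the smallest change with a call: -0.76 ± 0.19 at E60 against E50 (log2, SE, limma adjusted p = 0.0348), -0.41 ± 0.19 at E70 against E60 (adjusted p = 0.707) and -1.17 ± 0.19 at E70 against E50 (adjusted p = 0.00748). The other probe sets of the gene did not all follow it. A probe set of nearly the same brightness at E50 was 3.54-fold lower and a dimmer one 8.02-fold lower at E70 than at E50, both called (adjusted p = 0.00364 and 0.0124), the dimmer one with 396 to 671 at E50 and 27.3 to 124 at E70. The remaining one had overlapping stages and no call (0.85 ± 1.26 at E70 against E50, adjusted p = 0.667), and its E50 arrays ran from 11.5 to 435.

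**Figure D2:**
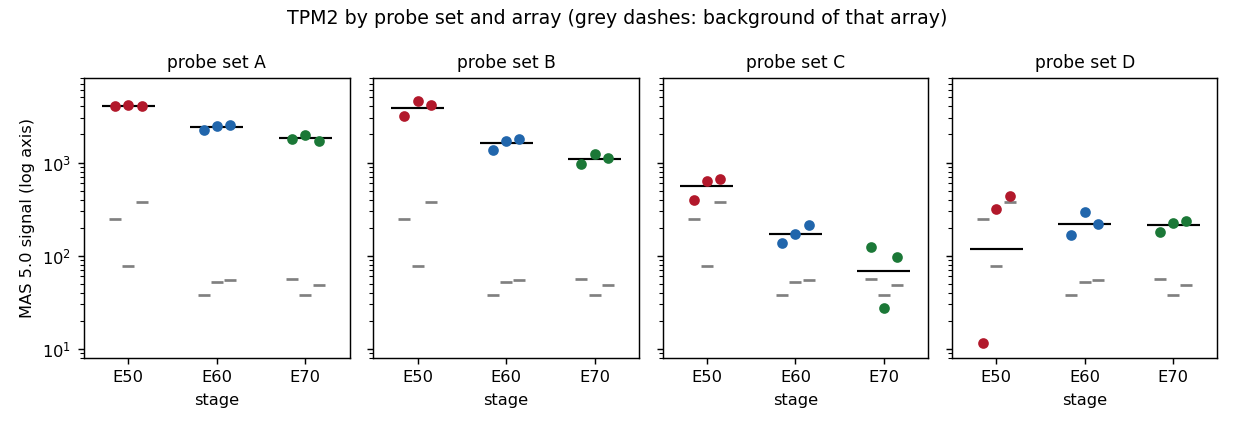
Signal of the 4 TPM2 probe sets, A being the brightest (log axis), on the 3 arrays of each stage. Points are arrays, black lines geometric means and grey dashes the background of each array. Probe sets A to C are lower at E70 than at E50, while probe set D has 1 low E50 array and no ordered change.

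The remaining genes belong to the Z disc and to energy supply. MYOZ1 binds calcineurin and alpha-actinin at the Z disc of fast fibres, TCAP caps titin at the Z disc, and PGAM2 is the muscle form of phosphoglycerate mutase, an enzyme of glycolysis. MYOZ1 read 520, 381 and 576 at E50, 75.7, 107 and 93.4 at E60, and 81.9, 68.8 and 52.3 at E70. PGAM2 read 354, 560 and 491 at E50, 77.3, 119 and 78.7 at E60, and 106, 115 and 113 at E70. In both genes all of the separation lay between E50 and the later stages. At E60 against E50 MYOZ1 fell by 2.42 ± 0.29 on the log2 scale (SE, 5.33-fold, limma adjusted p = 0.00303) and PGAM2 by 2.36 ± 0.28 (5.12-fold, adjusted p = 0.00304). At E70 against E60 neither was called, with a change of -0.45 for MYOZ1 (95% interval -1.12 to 0.21, adjusted p = 0.874) and of 0.31 for PGAM2 (-0.34 to 0.96, adjusted p = 0.996).

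TCAP was the gene with the smallest change at E70 against E50. Its signals were 335, 293 and 448 at E50, 167, 165 and 204 at E60, and 168, 274 and 215 at E70. The E60 arrays lay below the E50 arrays (-0.99 ± 0.28, limma adjusted p = 0.0488), while E70 overlapped E60 (0.27, 95% interval -0.39 to 0.93, adjusted p = 1.00). At E70 against E50 the change of -0.72 ± 0.28 was not called (adjusted p = 0.117).

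The median change of the 10 genes was alike at both steps, -1.71 at E60 against E50 and -1.73 at E70 against E60 on the log2 scale, against -0.18 and 0.05 over all probe sets, while the counts of calls were not. At E60 against E50 all 10 were called lower, against 13.7% of all genes, and all 10 had no overlap between the stages, against 27.5% of all genes. Of these calls, 3 (MYLPF, MYOZ1 and PGAM2) held under every one of the 19 alternatives. Centring each array on its median shifted the change of the median probe set by 0.77 on the log2 scale, left only those 3 calls and gave TPM2 a change of 0.02 (adjusted p = 0.967). Leaving out a single array gave 5 to 8 calls, with 5 without E60 replicate 2 or 3 and 6 without E60 replicate 1 or E70 replicate 2.

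At E70 against E60, where the arrays of both stages were alike in the EF1A ratio and in background, 3 of 10 genes were called lower (ACTC1, MYL1 and MYLPF), against 0.606% of all genes, and 7 of 10 had no overlap, against 15.7% of all genes. These 7 were the actin, the myosin light chains, the troponin subunits and TPM2. Fitting only the arrays of E60 and E70 called 4 genes lower, with TNNC2 added (adjusted p = 0.0167), against 1.18% of all genes. In the fit of all stages the count was 0 without E60 replicate 3 and 1 without any other single array of E60 or E70, MYLPF being the gene left, and no gene was called at this step under every alternative. The share of the E60 signal that was left at E70 was 15.7% for ACTC1, 18.04% for MYLPF, 18.7% for MYL1, 27.3% for TNNI2, 29.7% for TNNC2 and 30.8% for MYL2, while it was 73.1% for MYOZ1, 75.1% for TPM2, 120% for TCAP and 124% for PGAM2.

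A test of the late change minus the early change, added after the values were seen, called 1 of the 10 genes, against 2.42% of all genes. In PGAM2 the late change was higher than the early one by 2.66 ± 0.48 on the log2 scale (SE, limma adjusted p = 0.0456), a call that was lost when any E60 or E70 array was left out (adjusted p 0.107 to 0.205). For MYOZ1 the difference was 1.96 ± 0.49 (adjusted p = 0.0875) and for MYLPF 0.02 ± 0.38 (adjusted p = 0.983).

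**Figure D3:**
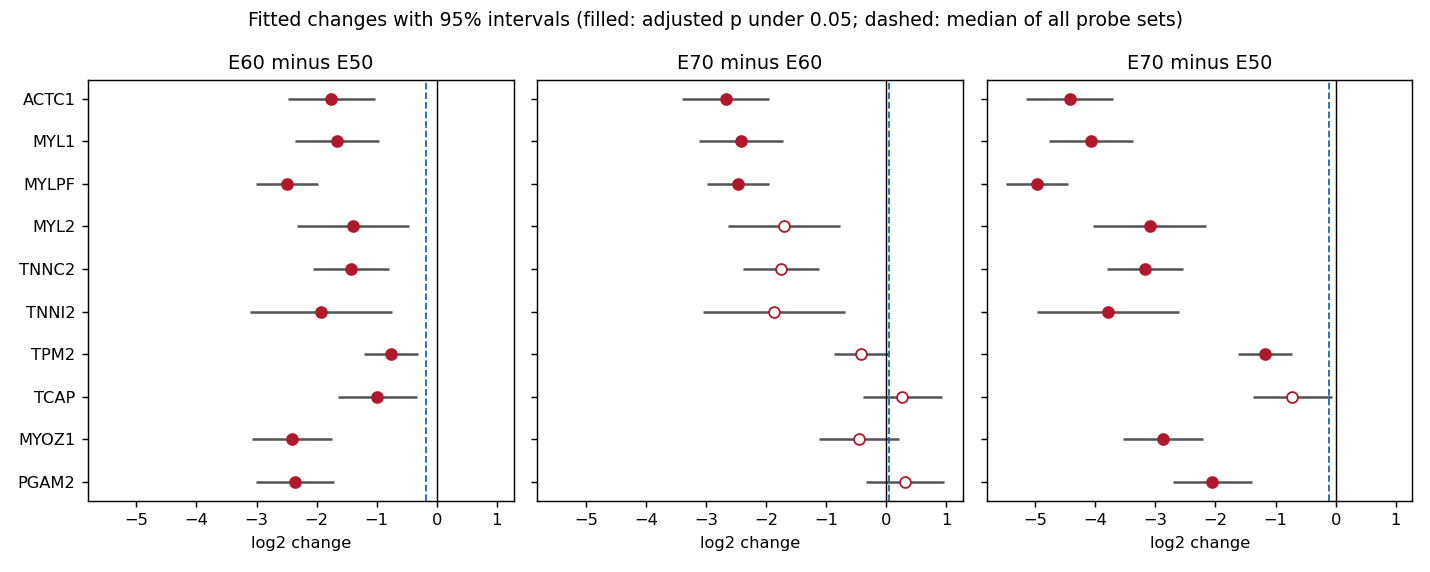
Log2 change of each gene at E60 against E50, E70 against E60 and E70 against E50, with 95% intervals from the limma fit. Filled points are calls, open points are not, and the dashed line is the median of all probe sets. All 10 points are filled at E60 against E50, and ACTC1, MYL1 and MYLPF at E70 against E60.

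The scaling of the arrays bore on the comparisons with E50 far more than on the late step. Median centring raised every E60 against E50 and E70 against E50 change by a like amount, with the median probe set shifted by 0.77 and 0.71, but at E70 against E60 the shift was -0.07 only. The changes at E70 against E50 ran from -4.26 to -0.01 after median centring and from -4.84 to -0.28 after quantile normalization, with all 10 below 0 in both.

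**Figure D4:**
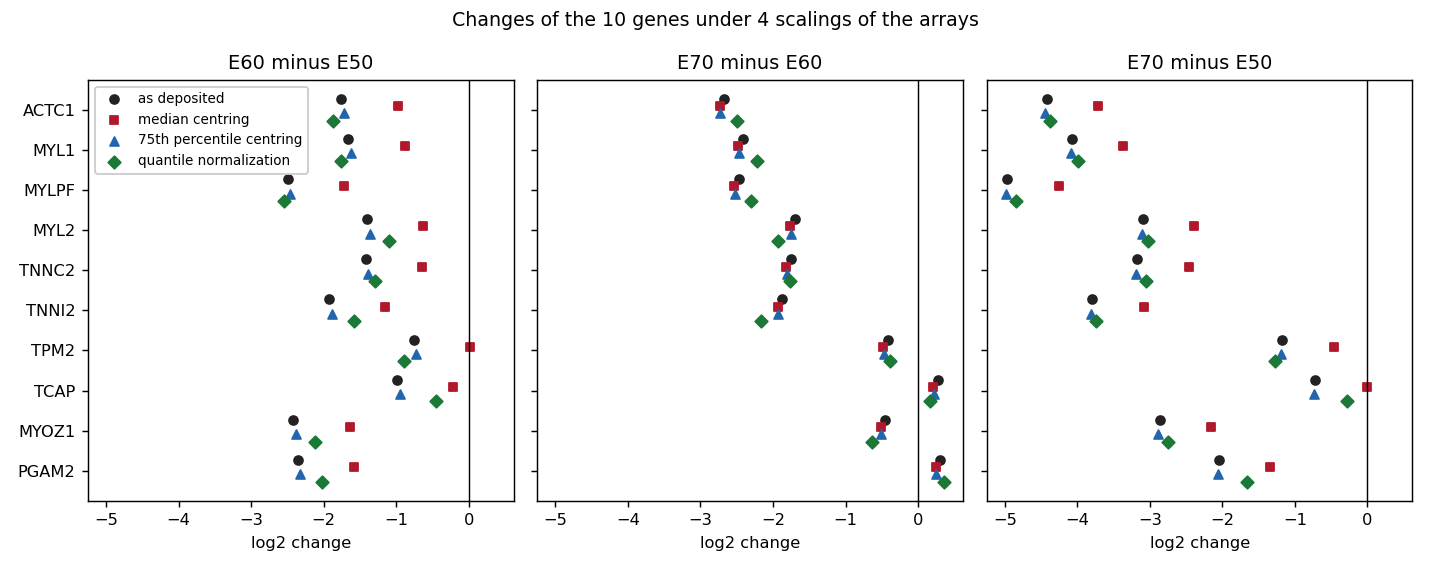
Log2 change of each gene with the signals as deposited, after centring each array on its median or its 75th percentile, and after quantile normalization, in the 3 comparisons. Median centring (squares) lies to the right of the other settings wherever E50 is compared, and the 4 settings lie close together at E70 against E60.

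Across the 9 arrays most of the 10 genes moved much alike, PGAM2 and TCAP less so. The correlation of a gene with the mean of the other 9 was r = 0.99 for MYLPF and TPM2, 0.97 for TNNC2, 0.96 for ACTC1 and MYL1, 0.94 for MYL2 and TNNI2, 0.92 for MYOZ1, 0.80 for PGAM2 and 0.63 for TCAP. These are descriptions over 9 arrays that share 3 stages, with no spread of r over all genes given. Outside the group, the 10 genes with the profile most like the mean of the muscle genes were SCRG1, LOC100514340, BGN, OAZ1, FAM216B, COX6C, SPARC, C4H1orf54, LOC100515166 and SEC11C, with r of 0.984 to 0.993 over the 9 arrays. None was on the muscle lists read below, and LOC100514340 and LOC100515166 have no descriptive symbol. BGN and SPARC encode extracellular matrix proteins, OAZ1 an inhibitor of polyamine synthesis and COX6C a subunit of cytochrome c oxidase. SCRG1, at the head of them, read 5081, 5310 and 3098 at E50, 380, 347 and 317 at E60, and 40.5, 26.2 and 34.3 at E70, where no array was above background, so that it was at least 93.6-fold lower at E70 than at E50 (limma adjusted p = 0.000172).

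Other genes of skeletal muscle were read from lists of 107 genes, of which 58 were measured. At E60 against E50, 15 of the 58 were called lower and 2 higher, where 13.7% of all genes were lower and 7.2% higher. At E70 against E50, 18 were lower and 2 higher, where 14.3% were lower and 7.33% higher. At E70 against E60 none was called by limma, and a limma fit with array weights called 4. At this step 15 had no overlap downward, which 15.7% of all genes had. An unadjusted limma p under 0.05 was found for 9, a count for which no share of all genes is given. The count of 17 at E60 against E50 was 6, 7 and 8 without E60 replicates 1, 2 and 3 and 11 without E70 replicate 3, and the count of 20 at E70 against E50 was 13 and 12 without E70 replicates 2 and 3. Centring on the median turned the balance: 4 were then lower and 5 higher at E60 against E50, and 14 lower and 6 higher at E70 against E50. Over all probe sets it turned 2552 lower and 1884 higher calls at E60 against E50 into 911 lower and 4679 higher. The median change of the 58 genes was -0.93 at E60 against E50, -0.39 at E70 against E60 and -1.46 at E70 against E50.

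Of the other thick filament genes 7 were measured, 2 of them called lower at E60 against E50 and 3 at E70 against E50, where 13.7% and 14.3% of all genes were. MYL4, the light chain of embryonic muscle and the atrium, read 883, 565 and 329 at E50, 164, 115 and 170 at E60, and 64.6, 40.4 and 59.1 at E70, so that every stage lay below the one before it, with 2 of 3 E50 arrays above background (-3.35 ± 0.41 at E70 against E50, log2, limma adjusted p = 0.00244). MYOM1, which crosslinks myosin at the M band, was called lower at E60 against E50 (adjusted p = 0.0034), with all E50 arrays but 1 of 3 E60 arrays above background, and was not called at E70 against E60 (0.11 ± 0.39, adjusted p = 1.00). MYH2, a fast myosin heavy chain, was called lower at E70 against E50 (adjusted p = 0.0324) but was above background on no array, so no fold is given.

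Of the other thin filament genes 9 were measured, and at E70 against E50 the called ones were NEB, TNNT3, TNNC1 and TPM1, all lower, where 14.3% of all genes were. NEB, the giant protein that runs along the thin filament, read 465, 295 and 795 at E50, 124, 133 and 137 at E60, and 35.4, 53.5 and 22.7 at E70, where 1 of 3 arrays was above background (-3.77 ± 0.44 at E70 against E50, limma adjusted p = 0.00212). TNNT3, the tropomyosin-binding subunit of fast troponin, was above background on no E70 array and on 1 of 3 E50 arrays, and was called lower (adjusted p = 0.0101) with no fold given. TNNC1, the slow and cardiac form of the calcium-binding subunit, overlapped between E60 and E50 but was above background on all E60 arrays and on no E70 array, at least 3.15-fold lower at E70 than at E60 without a call (adjusted p = 0.169) and called lower at E70 against E50 (adjusted p = 0.0143), where 2 of 3 E50 arrays were above background. TPM1, which is also made outside muscle, was 1.85-fold lower at E70 than at E50 by its brightest probe set (adjusted p = 0.0238). Its change turned sign with the mean of its 3 probe sets. At E60 against E50 the called genes were NEB, lower, and LMOD3, higher, where 13.7% of all genes were lower and 7.2% higher. LMOD3, which helps actin filaments to form and was singled out after its value was seen, was above background on no E50 array.

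The Z disc list held 15 measured genes, of which 7 were called lower at E60 against E50 and 6 at E70 against E50, where 13.7% and 14.3% of all genes were. SMPX, a small protein of striated muscle, read 408, 446 and 448 at E50, 101, 64.5 and 76.8 at E60, and 18.8, 51.2 and 50.6 at E70 (-2.45 ± 0.42 at E60 against E50, limma adjusted p = 0.00972). ACTN2, the alpha-actinin that crosslinks actin at the Z disc, was 3.70-fold lower at E60 than at E50 (adjusted p = 0.0227), and its E70 and E60 arrays overlapped. XIRP2, an actin-binding protein of muscle attachment sites, was called lower at E60 against E50 (adjusted p = 0.0133), with 2 of 3 E60 arrays above background. XIRP1 and ANKRD1 were called lower too (limma adjusted p = 0.00578 and 0.0493), but neither was above background on any array of any stage. DES, also called lower (limma adjusted p = 0.045), was above background on 1 of 3 E50 arrays.

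Among 7 measured genes of excitation and calcium handling, 3 were called lower at E60 against E50 and the same number at E70 against E50, where 13.7% and 14.3% of all genes were. SLN, an inhibitor of the calcium pump of the sarcoplasmic reticulum, read 380, 717 and 719 at E50, 101, 210 and 203 at E60, and 91.4, 99.2 and 84.8 at E70. CHRNA1, a subunit of the acetylcholine receptor of the nerve-muscle junction, was 3.65-fold lower at E60 than at E50 (limma adjusted p = 0.0406). ATP2A1, the calcium pump of fast fibres, was called lower at E70 against E50 (adjusted p = 0.0278), with 1 of 3 E70 arrays and 2 of 3 E50 arrays above background, so no fold is given. ATP2A2, the pump of slow and heart muscle that other cells also make, was called higher at E70 against E50 (1.05 ± 0.27, adjusted p = 0.0347), where 7.33% of all genes were.

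Of 11 metabolic genes, LDHB, a lactate dehydrogenase subunit of many tissues, was called lower at E60 against E50 (-1.47 ± 0.24, limma adjusted p = 0.00855). LDHB was also called lower at E70 against E50 (-1.49 ± 0.24, limma adjusted p = 0.00706). So was CKMT2, the mitochondrial creatine kinase of muscle (adjusted p = 0.0247), with 1 array in all above background. Of all genes, 13.7% were called lower at E60 against E50 and 14.3% at E70 against E50. CKM, the muscle creatine kinase, read 555, 352 and 15.2 at E50, 157, 112 and 205 at E60, and 57.5, 83.6 and 98.8 at E70, without a call. The regulators of the muscle lineage were mostly not measurable. MYOD1 and MYF5 were above background on no array, and MYF6 on 1 E50 array and 1 E70 array. Of the 9 measured, MSC was called lower at E60 against E50 (adjusted p = 0.0324), with 2 of 3 E60 arrays and 1 of 3 E50 arrays above background, and SIX4 higher (1.30 ± 0.24, adjusted p = 0.0126), and MEF2A was called higher at E70 against E50 (1.06 ± 0.23, adjusted p = 0.0195). Of all genes, 13.7% were lower and 7.2% higher at E60 against E50, and 7.33% were higher at E70 against E50. No probe set carried MYOG, PAX7, MYH3, MYH8 or ACTA1 as its only symbol.

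**Figure D5:**
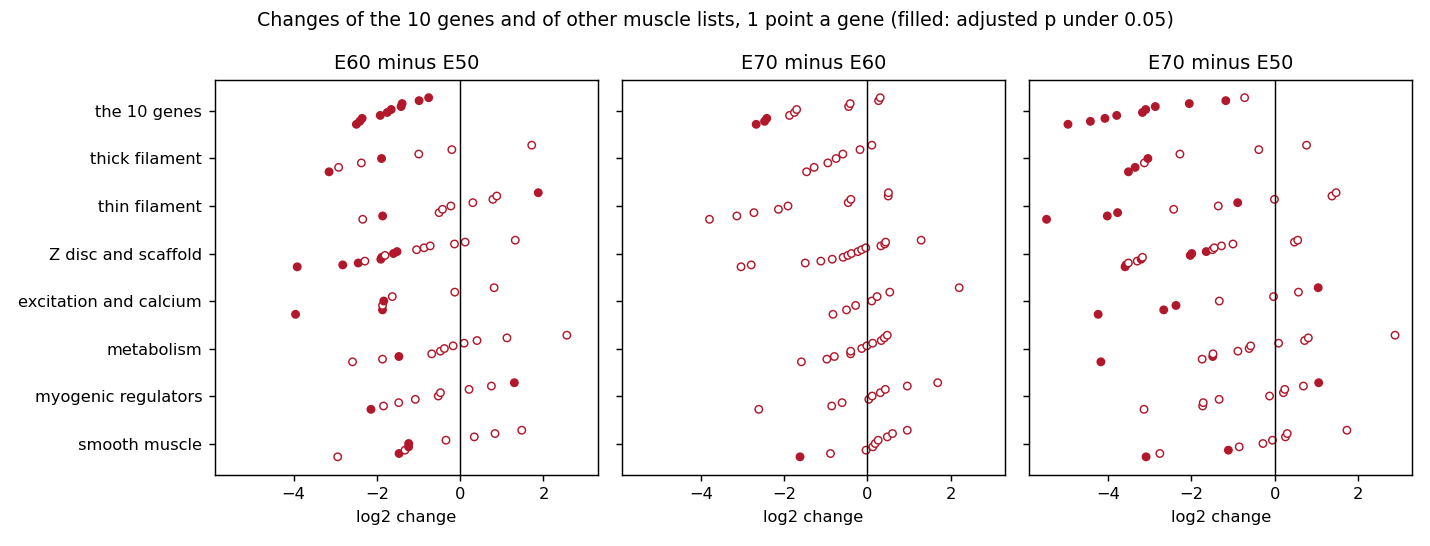
Log2 change of the 10 genes and of the other muscle genes, by list, in the 3 comparisons, with 1 point per gene (brightest probe set). Filled points are calls. The 10 genes and the thick filament and Z disc lists lie mostly left of 0 wherever E50 is compared. Of the 9 thin filament points, 5 lie left of 0 at E60 against E50 and 7 at E70 against E50. At E70 against E60 the filled points are ACTC1, MYL1, MYLPF and the smooth muscle gene ACTA2.

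Sorted by fibre type, the 7 measured genes of fast fibres, 4 of them among the 10 genes, were all called lower at E70 against E50, 5 at E60 against E50 and 2 at E70 against E60, where 14.3%, 13.7% and 0.606% of all genes were. The 7 include MYH2, above background on no array, TNNT3, above background on 1 of 3 E50 arrays and no E70 array, and ATP2A1, above background on 2 of 3 E50 arrays and 1 of 3 E70 arrays. Of 9 measured genes of slow fibres, 2 were called lower at E70 against E50 and 1 higher, and 1, MYL2, was lower at E60 against E50. The lower ones at E70 against E50 were MYL2, itself among the 10 genes, and TNNC1. The higher one was ATP2A2, which other cells also make. Of all genes, 14.3% were lower and 7.33% higher at E70 against E50, and 13.7% were lower at E60 against E50. None was called by limma at E70 against E60, where 2 had an unadjusted p under 0.05, with no share of all genes given for that threshold. The difference between the fibre types was not tested.

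Smooth and heart muscle were read beside them. Of 9 smooth muscle genes, 3 were called lower at E60 against E50 (ACTA2, TAGLN and MYL9), 1 at E70 against E60 and 2 at E70 against E50. Of all genes, 13.7%, 0.606% and 14.3% were called lower in these comparisons. ACTA2, the alpha actin of smooth muscle, read 8260, 8397 and 10413 at E50, 3540, 2845 and 3378 at E60, and 943, 1059 and 1176 at E70, called at both steps (-1.47 ± 0.22 and -1.62 ± 0.22, limma adjusted p = 0.00667 and 0.0383). TAGLN, which binds actin in smooth muscle, took another course, with 1570, 1056 and 1812 at E50, 568, 603 and 668 at E60, and 1333, 1131 and 1114 at E70 (0.96 ± 0.26 at E70 against E60, adjusted p = 0.312). MYL9, the smooth muscle regulatory light chain, was 2.36-fold lower at E60 than at E50 (adjusted p = 0.0191) and overlapped between E70 and E60. MYH11 was not measured by a probe set of its own. The smooth muscle list summed to between 19876 and 20652 at E50, 17616 and 19696 at E60 and 10221 and 13734 at E70. Its brightest gene was ACTA2 at E50 (mean signal 8972) and CALD1 at E60 and E70 (12418 and 6715). None of 4 measured heart genes was called by limma in any comparison. An unadjusted p under 0.05 was found for 2 at E60 against E50, 0 at E70 against E60 and 2 at E70 against E50, with no share of all genes given for that threshold. Their summed signal was 850 to 1121, 418 to 615 and 459 to 593, with TNNI3 the brightest (688, 420 and 419).

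Genes of the tooth lists moved in both directions over the same arrays. Of 5 measured genes of dental epithelium, EPCAM (1.77 ± 0.28, limma adjusted p = 0.00623) and CDH1 (1.17 ± 0.26, adjusted p = 0.0213) were called higher at E70 against E50, where 7.33% of all genes were. Both encode adhesion proteins of epithelia, and the change of CDH1 turned sign with the mean of its 2 probe sets. The other 3 were not called at E70 against E50, with changes of 2.54 for AMELX, 1.30 for AMBN and -1.45 for ENAM. The epithelium list summed to between 1940 and 2603 at E50, 2136 and 2418 at E60 and 5072 and 5807 at E70, with CDH1 and EPCAM its brightest genes. Of 6 measured genes of dental mesenchyme, POSTN and ASPN, which encode matrix proteins, were called higher at E60 against E50 and lower at E70 against E60. At E60 against E50, 7.2% of all genes were called higher and 13.7% lower. At E70 against E60, 0.606% were called lower and 0.118% higher. BMP4, a signal of the tooth germ, was called higher at E70 against E60 (1.79 ± 0.26, adjusted p = 0.0447). MSX1, a transcription factor of dental mesenchyme, was called lower at E60 against E50 (-1.03 ± 0.25, adjusted p = 0.0295), a change that turned sign with the mean of its 2 probe sets. At E70 against E50, 3 of the 6 were called lower and 1, BMP4, higher, where 14.3% of all genes were lower and 7.33% higher. The lower ones were ASPN (-2.61), MSX1 (-1.56) and DMP1, above background on 2 of 3 E50 arrays and no E70 array. At E70 against E60 ASPN changed by -4.44, against -2.67 for the lowest of the 10 muscle genes. The mesenchyme list summed to between 12778 and 15532 at E50, 39069 and 42292 at E60 and 9519 and 10538 at E70. Its brightest genes at E60 were ASPN and POSTN, with mean signals of 20406 and 17898. The share of these lists in the fall of the muscle genes was not tested.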

How the data were processed

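Total RNA pooled from additional molar germs of a stage was labelled and read on Porcine Genome Arrays (Affymetrix), with 3 arrays at each of E50, E60 and E70, and groups were taken from the sample labels. The authors computed the deposited intensity values with MAS 5.0 in GeneSpring, 1 linear signal per probe set and array. The target value of its scaling is not given in the sources used here, and the mean after trimming 2% at each end was about 500.1 on every array. An array has no sequencing depth; precision is limited by how many arrays there are and by their signal over background.

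Of 24123 probe sets, 124 array controls were set aside. A floor of 1 was applied before taking log2. Symbols came from the platform annotation, in which 10069 probe sets have 1 symbol, 198 several and 13732 none, and for 9961 the pig RefSeq table holds the Entrez number. Where a gene had several, the one brightest on average (mean log2) stood for it.

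Comparisons of stages used R 4.3.3 and limma 3.58.1 (lmFit and eBayes, all 9 arrays, prior degrees of freedom 1.47), with Benjamini-Hochberg adjustment over 23999 probe sets. The scripts were tested on simulated data. Where a stage had no array above background, a fold was given only as a bound, against the higher of the background and the gene's own signal on each array. Alternatives were a floor of 16, median and 75th percentile centring, quantile normalization, a filter on dim probe sets, the replicate number as a block, a trended and robust prior, array weights, each array left out, the compared stages alone, and the mean of a gene's probe sets. Named were all members, from each other list up to 4 called genes with the smallest adjusted p, a few regulators and markers whether called or not, and the 10 genes most alike to the members. The called genes LMOD3, ANKRD1, DES and DMP1 were named besides, after their values were seen. The members and the lists were chosen with earlier results of these data known.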

Additional observations from a re-analysis of the deposited data

How the results depend on the processing

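For the 10 genes at E70 against E50, 8 to 9 were called under each of the 19 alternatives run. At E60 against E50 the count of 10 as deposited was the highest of any setting or shared with others: it was 3 with median centring and 6 with array weights or with the 2 stages fitted alone, and it ranged from 5 to 8 when 1 array was left out. At E70 against E60 the count of 3 was 5 with array weights and 0 to 4 when 1 array was left out. Over the 3 stages together 8 to 9 were called when 1 array was left out, and at E70 against E50 it was 9 each time. No pairing of the arrays by the replicate numbers of the labels was seen. Same-numbered arrays of different stages deviated from their stage means with r between -0.02 and 0.03, and 4 of 9 arrays were closest to their own number. With 3 arrays per stage a weak pairing could be missed. With the replicate block, 6 of the 10 genes were called at E60 against E50 and 0 at E70 against E60, and 9 of the other muscle genes at E60 against E50. The 17 calls among the other muscle genes at E60 against E50 became 9 with median centring (4 lower and 5 higher), 8 with quantile normalization, 4 with array weights and 6 with the 2 stages alone, and 6 to 20 when 1 array was left out. At E70 against E60 no call became 4 with array weights and 0 to 1 when 1 array was left out, and at E70 against E50 the 20 calls became 6 with array weights, 10 with the 2 stages alone and 12 to 27 when 1 array was left out. Changes that turned sign were those of TPM2 at E60 against E50 with median centring (0.017) and SPARC at E60 against E50 with quantile normalization (0.49), and, with the mean of a gene's probe sets, TPM1 (0.35) and CDH1 (-0.11) at E70 against E50 and MSX1 (0.19) at E60 against E50. As this setting averages all probe sets of a gene, the other probe sets of TPM1, CDH1 and MSX1 changed the other way on average. Why the probe sets differ was not tested, nor was the cause of the turns of TPM2 and SPARC. Signal over background limits MYL2 and TNNI2 at E70, where 1 of 3 arrays was not above background. All 10 genes were above background on every E50 array, but some by little. On E50 replicate 3, with a background of 379, TNNI2 read 466 and TCAP 448. On E50 replicate 1, with a background of 248, TCAP read 335, PGAM2 354 and MYL2 368.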
